A study of Rattus norvegicus with 13 samples.

Results

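The immediate early genes Fos, Fosb, Fosl1, Fosl2, Jun, Junb, Egr1, Egr2, Egr3 and Ier2 were examined in CUT&Tag maps of rat aortic smooth muscle cells (SMC). These 10 genes, of 21397 named in the deposited peak lists, were chosen by name, and their peaks are those the lists assign to them as nearest gene. They held 165 of 154284 peaks: 42 in the H3K4me2 list of Myocd-LSD1 cells, 47 in that of Myocd-LSD1NF cells, 47 in that of control cells, and 29 in the FLAG list. CUT&Tag brings the transposase Tn5 to an antibody bound on chromatin and sequences the DNA it cuts nearby. H3K4me2 is histone H3 dimethylated at lysine 4, found at promoters and enhancers that are active or poised, and the demethylase LSD1 takes it off. H3K4me2 was mapped in Myocd-LSD1, Myocd-LSD1NF and control (wild-type) SMC lines, with 3 samples per line, and FLAG in Myocd-LSD1 cells carrying the FLAG tag, with 4 samples. All lines were grown in medium with 10% fetal bovine serum, and the labels name no serum starvation or restimulation. The labels do not spell out NF, the promoter that drives the fusions, or whether a line is a clone or its samples separate cultures.

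Immediate early genes are switched on within minutes of a growth stimulus, without new protein synthesis. Many of them carry CArG boxes in their promoters, which bind serum response factor (SRF) together with ternary complex factors such as ELK1. In smooth muscle, myocardin is an SRF coactivator that drives contractile genes, and it competes with ternary complex factors for SRF. FOS and JUN family proteins pair to form the AP-1 transcription factor, EGR proteins are zinc finger transcription factors, and IER2 is a small nuclear protein. SRF itself was not mapped in these samples.

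Promoter sequences are shown for Egr1 and Egr2, which hold CArG boxes, for Ier2, which holds a cyclic AMP response element (CRE), and for Fosl1, the only gene of the 10 with a site where H3K4me2 was higher in Myocd-LSD1 (compared with Myocd-LSD1NF). Each is 300 bases from RefSeq (build GRCr8), 250 before and 50 after the annotated start, 5′ to 3′ on the gene's strand, and capitals mark every match to the motifs searched. They are chr18:26736828-26737127 (+) for Egr1, chr20:21054392-21054691 (-) for Egr2, chr19:40399123-40399422 (+) for Ier2 and chr1:212183635-212183934 (+) for Fosl1.
Egr1: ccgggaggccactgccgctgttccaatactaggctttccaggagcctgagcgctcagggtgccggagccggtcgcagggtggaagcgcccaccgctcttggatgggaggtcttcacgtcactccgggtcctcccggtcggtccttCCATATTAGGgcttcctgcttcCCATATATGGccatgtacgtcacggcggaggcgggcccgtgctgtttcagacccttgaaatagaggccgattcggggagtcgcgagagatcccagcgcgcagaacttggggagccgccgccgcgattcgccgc
Egr2: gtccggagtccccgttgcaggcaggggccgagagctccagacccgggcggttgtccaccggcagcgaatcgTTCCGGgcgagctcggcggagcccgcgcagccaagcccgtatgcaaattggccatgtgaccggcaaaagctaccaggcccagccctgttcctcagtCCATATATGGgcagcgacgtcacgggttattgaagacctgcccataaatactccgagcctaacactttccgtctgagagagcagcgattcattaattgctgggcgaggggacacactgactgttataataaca
Ier2: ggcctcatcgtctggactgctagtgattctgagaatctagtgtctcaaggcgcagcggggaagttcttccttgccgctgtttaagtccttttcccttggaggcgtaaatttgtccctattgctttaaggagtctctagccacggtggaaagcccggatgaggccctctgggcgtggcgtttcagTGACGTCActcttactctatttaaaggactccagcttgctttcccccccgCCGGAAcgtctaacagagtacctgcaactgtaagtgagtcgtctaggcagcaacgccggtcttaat
Fosl1: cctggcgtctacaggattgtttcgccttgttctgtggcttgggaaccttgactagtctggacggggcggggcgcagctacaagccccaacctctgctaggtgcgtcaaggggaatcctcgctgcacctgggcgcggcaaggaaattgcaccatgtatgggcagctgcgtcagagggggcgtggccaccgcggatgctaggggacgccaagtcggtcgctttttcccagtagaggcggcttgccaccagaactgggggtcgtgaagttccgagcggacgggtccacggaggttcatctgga

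The RefSeq table held 7 of the 10 promoters, Fos, Jun and Egr3 being the ones not matched. Egr1 had CArG boxes starting at -105 and -83 from the start, and Egr2 had one at -83, with the same 10 letters in Egr1 and Egr2 at that position. CArG boxes were found in 1.64% of all 33469 promoters in the table. The CRE (TGACGTCA) was found at -66 in Ier2 and in 1.83% of all promoters, and the ETS core (CCGGAA), which ternary complex factors bind, in Egr2 and Ier2 and in 15.0% of all. EGR motifs (GCGNGGGCG) were found in Fosl2 and in 4.98% of all. The TATA box letters (TATAAA) were found in Junb at -49, in Fosb at -180 on the opposite strand, and in 14.2% of all. The AP-1 motif (TGANTCA) was in 0 of the 7 and in 7.33% of all promoters. Searches covered both strands, and no match overlapped another in these promoters. A match is a run of letters, not a measured binding site, and the RefSeq start may not be the start used in the peak lists, whose build is rn6.

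All 10 genes carried H3K4me2 at their promoters in every line. A promoter peak, meaning a peak at most 3 kb away from the transcription start site (TSS), was listed for 10 of 10 genes in Myocd-LSD1, in Myocd-LSD1NF and in control cells. Of all 21397 genes, 64% had one in Myocd-LSD1, 61.7% in Myocd-LSD1NF and 65.8% in control, and 57.6% in all 3 lists. Summed over peaks, the marked stretch was wide. Peaks covered a median of 2258 bp within 3 kb of the TSS in Myocd-LSD1 (785 to 2829 bp over the 10 genes), 2207.5 bp in Myocd-LSD1NF (1302 to 2873 bp) and 2152.5 bp in control (1230 to 3037 bp). Over all genes with any coverage, the medians were 1238, 1237 and 1094.5 bp in the same lists. Single promoter peaks of the 10 genes were not wider throughout: their median width was 582 bp in Myocd-LSD1, 802 bp in Myocd-LSD1NF and 879 bp in control, against 865, 870 and 750 bp over all promoter peaks of those lists. Fold enrichment over local background, the peak caller's value as the authors deposited it, was lower than usual for single peaks. Promoter peaks of the 10 genes had medians of 3.91 in Myocd-LSD1, 4.28 in Myocd-LSD1NF and 3.94 in control, against 7.38, 7.48 and 6.96 over all promoter peaks of those lists. A gene had up to 4 promoter peaks in a list, weak side peaks among them. The highest promoter peak of each gene in Myocd-LSD1 had a fold enrichment between 3.91 (Jun) and 8.67 (Egr1). The same value over all genes was not computed. Each group has a single peak list, so differences between lists have no replicate error, and depth per sample is unknown. Each list names 1 alignment, and the H3K4me2 names end in the number 1, so a list may rest on 1 sample of its group rather than on all of them.

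**Figure D1:**
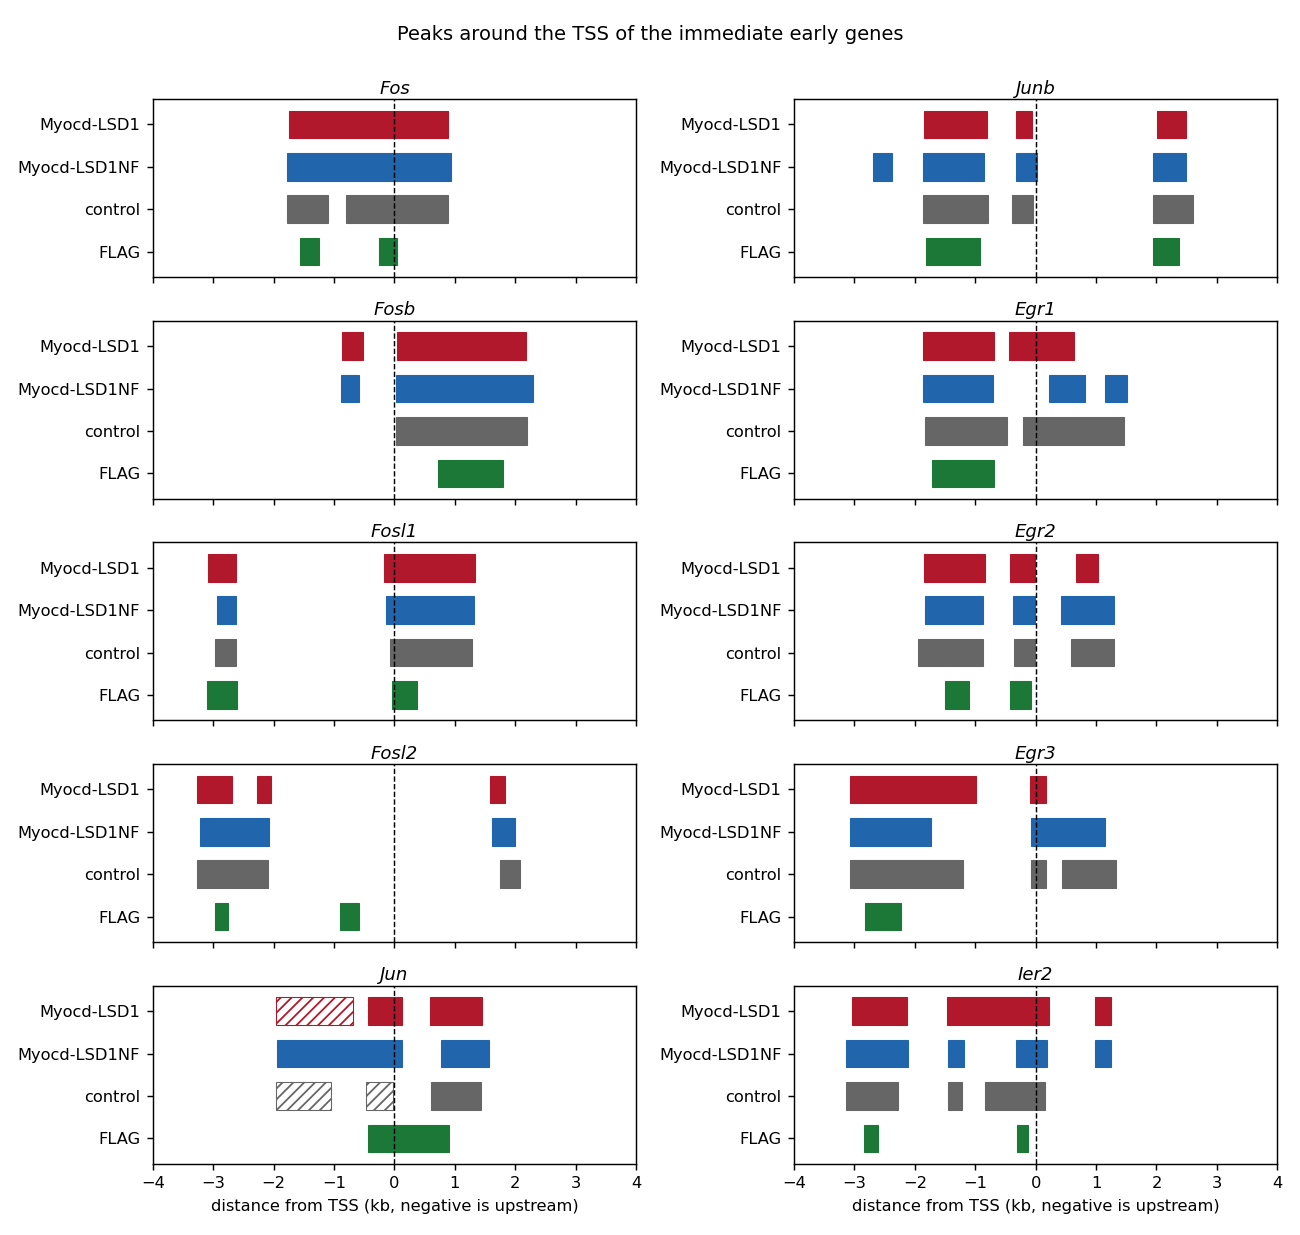
Peaks within 4 kb of the TSS of each gene. The horizontal axis is the distance from the TSS in kb, rows are the Myocd-LSD1, Myocd-LSD1NF and control H3K4me2 lists and the FLAG list, filled bars are peaks the lists assign to the gene and hatched bars are peaks assigned to LOC100911221 beside Jun. Every gene has H3K4me2 bars in all 3 lines, and Fosl2 has none within 1 kb of its TSS.

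Among the FOS family genes, Fos had the broadest single promoter peak in Myocd-LSD1 and Myocd-LSD1NF cells, and Fosb in control cells. Fos, the founding AP-1 gene, was covered from upstream to inside the gene by a peak of 2635 bp in Myocd-LSD1 (chr6:109298682-109301316, fold enrichment 7.26) and 2709 bp in Myocd-LSD1NF (7.82). In control cells the same stretch held separate peaks of 666 bp (6.66) and 1679 bp (5.60). Fosb was marked from just inside its TSS over 2132 bp in Myocd-LSD1, 2274 bp in Myocd-LSD1NF and 2172 bp in control. A short Fosb peak upstream of the TSS was listed in Myocd-LSD1 (335 bp, fold enrichment 3.59) and Myocd-LSD1NF (289 bp, 3.73) and not in control. Fosl1, which encodes FRA-1, had a TSS peak of 1502 bp in Myocd-LSD1, 1454 bp in Myocd-LSD1NF and 1356 bp in control.

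Fosl2, which encodes FRA-2, differed from the others in position. It had 0 bp of H3K4me2 within 1 kb of its TSS in each of the 3 lines, and its promoter peaks lay upstream and inside the gene. The upstream stretch was a single peak of 1137 bp in Myocd-LSD1NF and 1184 bp in control. In Myocd-LSD1 it was split into peaks of 230 bp and 582 bp, and the authors' deposited table of line differences lists no site there. Fosl2 had the lowest promoter coverage of the 10 in every H3K4me2 list (785 bp in Myocd-LSD1, 1302 bp in Myocd-LSD1NF and 1230 bp in control).

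The JUN family genes were marked on both sides of the TSS. Jun had a TSS peak of 572 bp in Myocd-LSD1 (chr5:114014148-114014719, fold enrichment 3.91) and 2071 bp in Myocd-LSD1NF (5.13). Control cells had no TSS peak listed under Jun, but a peak of 452 bp (4.53) ending 22 bp before the Jun TSS is assigned to LOC100911221. A further upstream peak under that name was 1270 bp wide in Myocd-LSD1 and 901 bp in control, so these lists hold H3K4me2 there that is not counted among the Jun peaks. Total promoter coverage at Jun was 2701 bp in Myocd-LSD1, 2873 bp in Myocd-LSD1NF and 2178 bp in control. Junb had an upstream peak of 1040 bp in Myocd-LSD1, 1006 bp in Myocd-LSD1NF and 1067 bp in control, with low fold enrichment (4.10, 4.46 and 3.83 in that order). A further upstream Junb peak (323 bp, fold enrichment 2.29) was listed only in Myocd-LSD1NF.

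Among the EGR genes, the upstream mark of Egr1 was much alike in the lists and the mark over its TSS was not. Egr1 encodes a zinc finger factor induced by serum. Its upstream peak measured 1169 bp in Myocd-LSD1 (fold enrichment 8.67), 1149 bp in Myocd-LSD1NF (7.77) and 1360 bp in control (7.45). Over the TSS, Myocd-LSD1 had a peak of 1075 bp (3.39) and control one of 1677 bp (3.17), while the nearest downstream peaks of Myocd-LSD1NF, of 591 and 352 bp, began 227 and 1155 bp after it. Egr1 coverage within 3 kb was 2244 bp in Myocd-LSD1, 2092 bp in Myocd-LSD1NF and 3037 bp in control, the highest of the 10 genes in the control list. Egr3 had an upstream peak of 2085 bp in Myocd-LSD1, 1337 bp in Myocd-LSD1NF and 1877 bp in control. The Egr3 TSS peak measured 260 bp in Myocd-LSD1, 1232 bp in Myocd-LSD1NF and 247 bp in control, where another of 885 bp followed. The Ier2 TSS peak measured 1697 bp in Myocd-LSD1, 523 bp in Myocd-LSD1NF and 988 bp in control. Separate Ier2 peaks of 266 bp in Myocd-LSD1NF and 230 bp in control lay within the stretch of that Myocd-LSD1 peak. Neither the Egr1, the Egr3 nor the Ier2 TSS has a site in the authors' deposited table, so these differences in peak width did not come with a listed difference between Myocd-LSD1 and Myocd-LSD1NF.

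**Figure D2:**
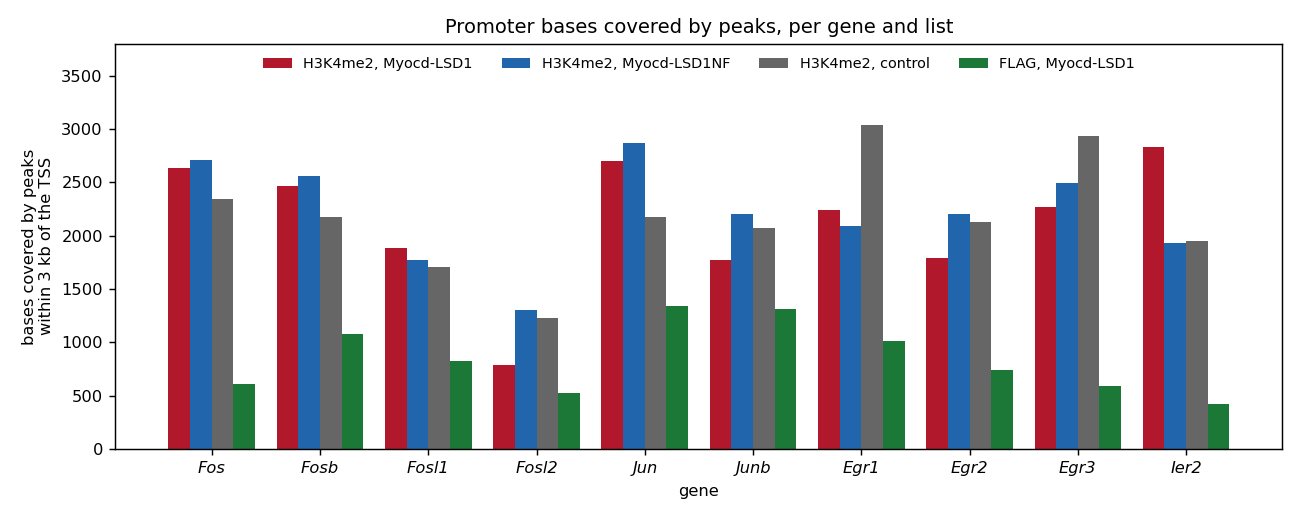
Bases within 3 kb of the TSS covered by peaks, per gene, for the Myocd-LSD1, Myocd-LSD1NF and control H3K4me2 lists and the FLAG list. Bars start at 0 and have no error, since each group has a single list. Ier2 has 2829 bp in Myocd-LSD1 against 1934 bp in Myocd-LSD1NF and 1946 bp in control, and Fosl2 has the shortest H3K4me2 bars.

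The authors compared Myocd-LSD1 with Myocd-LSD1NF using DiffBind and listed 4 sites at these genes; the labels give 3 samples per line, and how many entered the test is not stated. Egr2, Egr3 and Ier2 had a lower site in Myocd-LSD1, 3 genes of 10, and Fosl1 a higher one, 1 of 10, by the authors' deposited table, and the other 6 genes had none. That table (the authors' deposited table) gave lower sites to 9.28% and higher sites to 12.9% of the 19345 genes with H3K4me2 peaks in these lines. The 10 genes had a median of 7.5 H3K4me2 peaks over the lists of these lines, and all such genes 3. Counted over merged H3K4me2 regions, 3 of 48 regions of these genes overlapped a lower site and 1 of 48 a higher one in the authors' deposited table, where 4.23% and 5.87% of all regions did. The share with a lower site lies above that of all regions and the share with a higher site below it. These shares rest on 3 regions and 1 region, and neither difference was tested.

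The Egr2 site is the strongest of the 4 by FDR and lies on a TSS. Egr2 encodes a zinc finger factor best known from nerve myelination and hindbrain patterning. For the site at chr20:22457450-22458365 (rn6), the authors' deposited table gives log2 concentrations (normalized reads, mean per line) of 6.06 for Myocd-LSD1 cells and 7.26 for Myocd-LSD1NF cells. The log2 difference in the authors' deposited table is -1.21 (DiffBind p = 9.37e-07, FDR 2.92e-05). Of all lower sites in the authors' deposited table, 17.9% had a difference smaller in size, and their median was -2.09. The site covers the most downstream of the 4 listed Egr2 start sites. Its peak was 372 bp wide in Myocd-LSD1 (fold enrichment 2.61), 891 bp in Myocd-LSD1NF (5.99) and 720 bp in control (5.12). The neighbouring Egr2 peaks upstream, of 417 and 1002 bp in Myocd-LSD1, 360 and 957 bp in Myocd-LSD1NF, and 338 and 1075 bp in control, are without a site in the authors' deposited table. The lower mark at Egr2 was thus listed for the downstream peak alone.

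Fosl1 was higher by a small amount. Its TSS site (chr1:220826399-220827894) is given log2 concentrations of 8.11 for Myocd-LSD1 cells and 7.57 for Myocd-LSD1NF cells by the authors' deposited table, with a log2 difference of 0.55 (DiffBind p = 0.00642, FDR 0.0461). Of all higher sites in the authors' deposited table, 0.2% had a smaller difference, and their median was 2.36.

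The other lower sites lay far from their gene. The Egr3 site (chr15:51702734-51703228) is given 2.02 for Myocd-LSD1 cells and 4.40 for Myocd-LSD1NF cells by the authors' deposited table, with a log2 difference of -2.39 (DiffBind p = 0.000476, FDR 0.00577). It is -53455 bp from an Egr3 TSS, inside an intron of Pebp4, and its peak was listed in Myocd-LSD1NF (628 bp, fold enrichment 7.64) and control (485 bp, 4.67) and not in Myocd-LSD1. The Ier2 site (chr19:25671571-25672337) is given 4.38 for Myocd-LSD1 cells and 5.43 for Myocd-LSD1NF cells by the authors' deposited table, with a log2 difference of -1.05 (DiffBind p = 0.00687, FDR 0.0486). It lies 103333 bp downstream of the Ier2 TSS, inside the calcium channel gene Cacna1a, so that its link to Ier2 rests on the nearest TSS alone. Of all lower sites in the authors' deposited table, 58.9% had a difference smaller in size than the Egr3 site, and 12.1% than the Ier2 site. Counting promoter sites alone (3 kb), a setting chosen after the data were seen, left 1 of the 10 genes with a lower and 1 with a higher site.

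**Figure D3:**
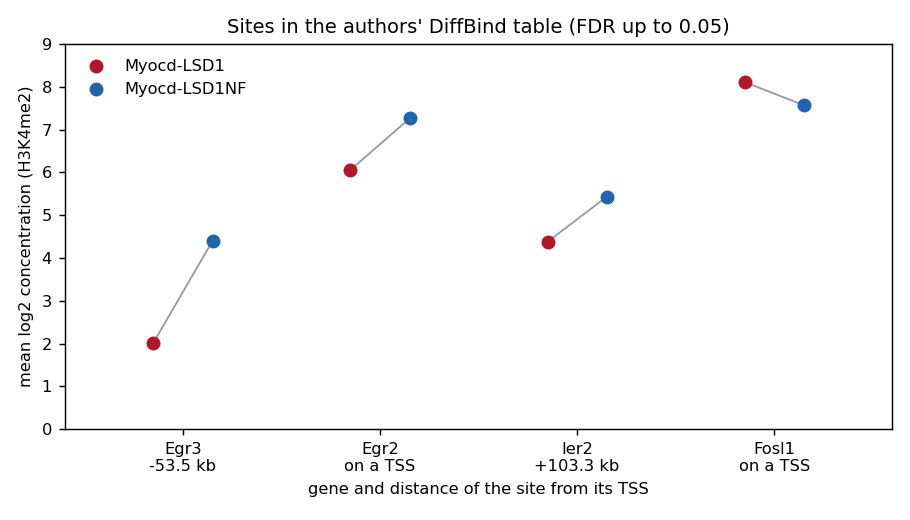
Mean log2 concentration of H3K4me2 at the 4 sites of these genes in the authors' deposited DiffBind table, with Myocd-LSD1 (red, left) and Myocd-LSD1NF (blue, right) joined by a line. Points are the authors' means per line and have no error bars, because the table gives none. Myocd-LSD1 is below Myocd-LSD1NF at Egr3, Egr2 and Ier2 and above it at Fosl1.

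Beyond the promoters, Fos and Ier2 had the highest peaks of the set. H3K4me2 peaks of the 3 lines were merged whatever gene they are assigned to, and 54 merged regions held a peak of the 10 genes. Of these regions, 23 were at promoters and 31 distal. In the distal Junb region at -5664 bp, only a control peak of 271 bp is listed under Junb. The peaks of Myocd-LSD1 and Myocd-LSD1NF in that region are not listed under Junb. At Fos, the region at -17919 bp had a fold enrichment of 13.8 in Myocd-LSD1, 13.7 in Myocd-LSD1NF and 11.1 in control. The Fos region at -37852 bp had 11.6 in Myocd-LSD1, 11.7 in Myocd-LSD1NF and 13.4 in control. The region starting 7785 bp downstream of the Ier2 TSS reached 12.7 in Myocd-LSD1, 15.4 in Myocd-LSD1NF and 14.2 in control, the highest value of these genes in the Myocd-LSD1NF and control lists. Fold enrichments are comparable only within a list, where these Ier2 peaks exceeded 92.5%, 97.9% and 97.8% of all peaks in that order.

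Promoter regions were more often shared by the lines than distal ones. A peak was listed in all 3 lines at 20 of 23 promoter regions (87.0%), against 72.0% of all promoter regions, and at 16 of 31 distal regions (51.6%), against 39.7% of all distal regions. The 3 promoter regions not listed in all lines were the short upstream peak of Fosb and a downstream peak of Ier2 (990 bp after its TSS), both listed in Myocd-LSD1 and Myocd-LSD1NF and not in control, and the Junb peak listed in Myocd-LSD1NF alone. Of the 31 distal regions, 1 (3.23%) was listed in Myocd-LSD1 alone, 3 (9.68%) in Myocd-LSD1NF alone and 6 (19.4%) in control alone, against 14.4%, 14.1% and 11.2% of all distal regions in the same order. A -log10 q-value of at least 5 was reached by 0 of 1 in Myocd-LSD1, 1 of 3 in Myocd-LSD1NF and 1 of 6 in control. The share of all distal regions of a single list that reach this value was not counted. The control-only regions were at Fos, Fosl2, Egr2 and Ier2 and their peaks had fold enrichments from 3.10 to 7.08. The Myocd-LSD1 one lay in a Fosl2 intron (2.72). The H3K4me2 lists name another gene as host of 12 of the 31 distal regions: 7 of Fosl2 in Bre, 4 of Ier2 in Cacna1a and 1 of Egr3 in Pebp4. A further Ier2 region, 27725 bp downstream of the TSS, has no host gene named in these lists, and the FLAG peak within it is annotated to the last exon of Cacna1a.

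**Figure D4:**
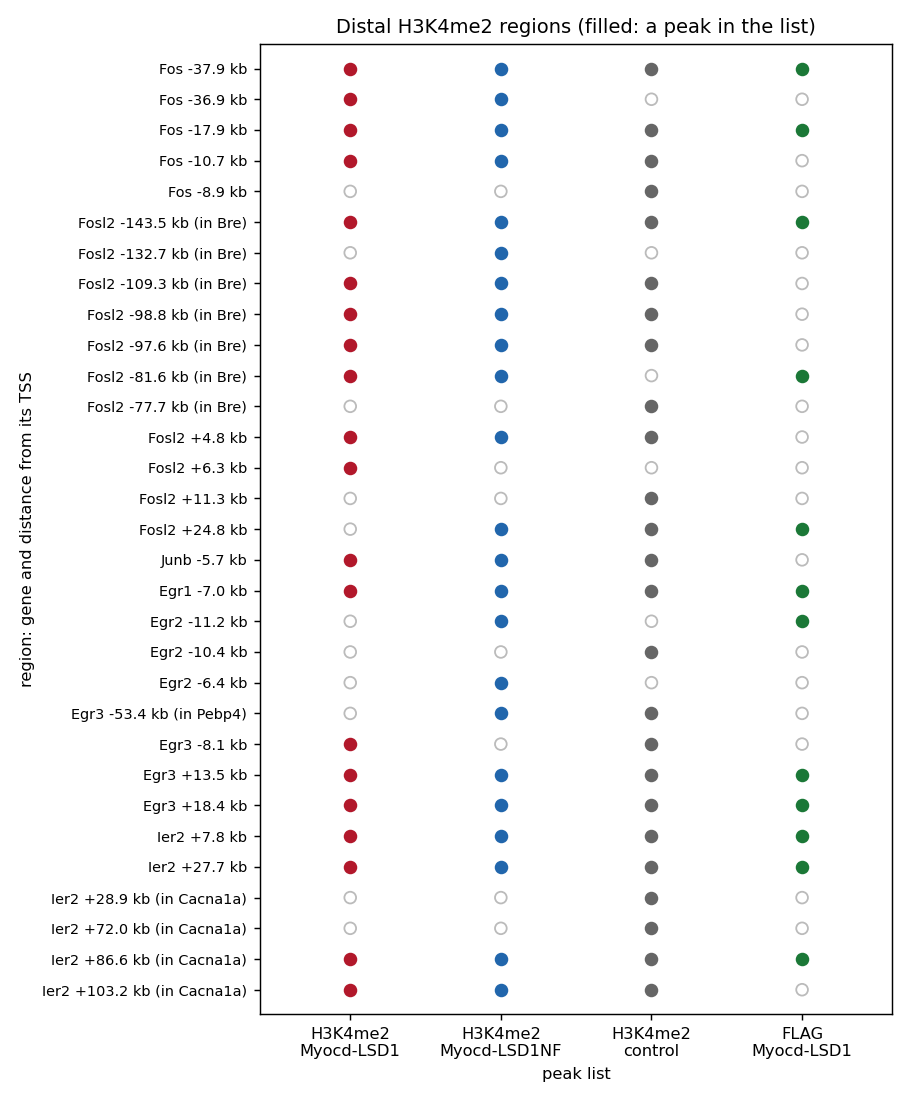
Distal H3K4me2 regions of the 10 genes, named by gene and distance from its TSS in kb, with the host gene where the region lies inside another gene. Filled circles mark a peak in the Myocd-LSD1, Myocd-LSD1NF or control H3K4me2 list or the FLAG list, whatever gene it is assigned to. Of the 31 regions, 16 are filled in all 3 H3K4me2 columns and 12 in the FLAG column.

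FLAG peaks were present at the promoters (within 3 kb) of all 10 genes. Within 1 kb of the TSS, 9 of the 10 had one, Egr3 being the exception. With a -log10 q-value of at least 5, 9 of the 10 had one within 3 kb, Ier2 being the exception. The shares of all genes at these stricter settings were not counted. Of all genes, 70.7% had a FLAG peak and 44.2% one within 3 kb of a TSS. Of the genes with H3K4me2 promoter peaks in all 3 lists, 69.4% had a FLAG promoter peak, and 40% of all genes had promoter peaks in all 4 lists. Beside that share, 10 of 10 is a description of a small set, without a test. FLAG covered a median of 781 bp of the promoter window (421 to 1339 bp), against 511 bp over all genes with FLAG coverage there. No FLAG library from untagged cells is used here, so FLAG signal that does not come from the fusion was not tested.

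By q-value, Jun and Junb had the strongest promoter FLAG peaks of the 10 genes. The Jun peak spanned the TSS over 1339 bp (chr5:114013375-114014713, fold enrichment 9.16) with its summit at -138, and its -log10 q-value exceeded that of 97.8% of the FLAG list. It spans the gap between the H3K4me2 peak over the Jun TSS and the next one inside the gene in Myocd-LSD1 cells. The Junb peak (886 bp, fold enrichment 5.64) had its summit at -1254 and the Egr1 peak (1015 bp, 7.22) at -826. Egr2 had a FLAG peak (346 bp, 5.89) with its summit at -100 from the TSS of its main RefSeq transcript. Its CArG box starts at -83 in the GRCr8 promoter, a distance in another build. The Egr1 promoter FLAG peak ended at -697, while the CArG boxes of Egr1 start at -105 and -83 in that build. Whether FLAG peaks lie on CArG boxes was not tested. At Fos, FLAG peaks had summits at -1452 (7.05) and -247 (3.77), and at Fosb at 1187 inside the gene (7.13). At Egr3 the promoter FLAG peak (589 bp, 5.88) lay upstream, with its summit at -2519. The highest FLAG fold enrichments of these genes were distal, 10.3 at -18075 bp from Fos and 10.2 at 18553 bp from Egr3, both on regions with H3K4me2 in all 3 lines. The promoter FLAG peaks of Fosl1 and Ier2 had fold enrichments from 3.53 to 4.83, and the lowest promoter value of the 10 genes, 2.89, was at the Junb peak downstream of its TSS.

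FLAG peaks largely lay on stretches marked by H3K4me2, in each of the 3 lines. Of the 29 FLAG peaks of these genes, 25 (86.2%) overlapped an H3K4me2 peak of Myocd-LSD1 cells, 27 (93.1%) one of Myocd-LSD1NF cells and 25 (86.2%) one of control cells. Over all FLAG peaks the shares were 69.0%, 67.4% and 65.1% in the same order. For Myocd-LSD1 the difference was mostly in distal FLAG peaks, 76.9% for these genes against 53.9% of all. At promoters the shares were close, 93.8% against 91.5%. Summits of 15 of 16 promoter FLAG peaks lay inside a Myocd-LSD1 H3K4me2 peak, near the 90.2% of all promoter FLAG peaks. In the other direction, 25 of 42 regions with a Myocd-LSD1 H3K4me2 peak (59.5%) overlapped FLAG, against 42.8% of all such regions. Of the 29 FLAG peaks, 2 (6.9%) overlapped no H3K4me2 peak of any line, against 26.5% of all FLAG peaks. Both were at Fosl2, at -593 (303 bp, fold enrichment 4.99) and at -200484 bp (173 bp, 4.19). At promoters, the share without H3K4me2 was 6.25% for these genes and 6.91% for all FLAG peaks. Among distal FLAG peaks it was 7.69% of 13 for these genes and 39.6% for all. The Fosl2 peak at -593 falls in the promoter stretch that had no H3K4me2.

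FLAG was not found at the sites that were lower in Myocd-LSD1. The Egr2, Egr3 and Ier2 sites of the authors' deposited table overlapped no FLAG peak, and the Fosl1 site did. Of all sites in the authors' deposited table, 22.7% of the lower and 32.5% of the higher ones overlapped a FLAG peak. Whether 0 of 3 differs from the share of all lower sites was not tested.

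Related immediate early, AP-1 and SRF partner genes were listed for comparison. Of 28 such genes, 27 had an H3K4me2 promoter peak in all 3 lists, and 23 had a FLAG promoter peak. By the authors' deposited table, 5 of the 28 had a lower and 4 a higher site, 1 of them (Gadd45b) both, and 20 had none, against the 9.28% and 12.9% of all genes given above. Jund, the remaining JUN family gene, was higher by 1.18 (FDR 0.000373) at a promoter site in the authors' deposited table, with 7.10 for Myocd-LSD1 cells and 5.93 for Myocd-LSD1NF cells. Cyr61, a matricellular SRF target, was higher by 1.33 (FDR 0.00348) in the authors' deposited table, with 6.70 for Myocd-LSD1 cells and 5.37 for Myocd-LSD1NF cells, and had no promoter peak in the control list. Arc, a neuronal immediate early gene, differed by -0.68 (FDR 0.0255) on its TSS in the authors' deposited table, with 7.52 for Myocd-LSD1 cells and 8.19 for Myocd-LSD1NF cells. Gadd45b, a stress response gene, had sites at -0.91 and 0.73 within 3 kb of its TSS in the authors' deposited table. Distal sites of Nr4a3, Klf6 and Trib1 differed by -1.69, -1.88 and -1.89 and that of Elk3, which encodes a ternary complex factor, by 2.62 in the authors' deposited table. Srf, Elk1 and Elk4, which encode SRF and other ternary complex factors, were without a site in the authors' deposited table.

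The genes most like the 10 in promoter coverage, by Euclidean distance to their median over the 4 lists, were Hdac3 (67.6 bp), Hist2h2aa3 and Hist2h3c2 (76.8 bp each), LOC100911881 (87.9 bp) and Ctsa (91.6 bp). The smooth muscle identity of the lines was checked by marker promoters. Of 7 smooth muscle markers, 6 had a promoter H3K4me2 peak in Myocd-LSD1 (all but Myh11), 7 in Myocd-LSD1NF and 7 in control. Of all genes, 64%, 61.7% and 65.8% had such a peak in the same order. Of 5 endothelial markers 0, 0 and 1 (Kdr), and of 5 macrophage and leukocyte markers 1 in each (Csf1r), had one in the same order.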

How the data were processed

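CUT&Tag was run for H3K4me2 (3 samples per line) and FLAG (4 samples), and 1 peak list per group was used. Bowtie2, deepTools, MACS2, ChIPseeker, DiffBind and the build rn6 are named, without versions or settings, per the submitters' processing notes. Each list names a single alignment in its peak names, so it may come from 1 sample. For pooling of samples and normalization, the steps were not given in the sources used here, and depth per sample is unknown. As to units, the fold enrichment (a ratio), the score and the -log10 q-value of each peak are as the authors deposited them, per the file headers. The authors' deposited table gives log2 concentrations, their log2 difference (Myocd-LSD1 minus Myocd-LSD1NF, read from the values within 0.01), p-value and FDR, and lists sites with an FDR of at most 0.05 only.

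Peak starts were moved by 1 to count from 1. Starts of sites lay 1 below a peak start at 1503 of 5183 sites, so they were moved by 2. Overlaps needed 1 bp, sites belonged to a gene when they overlapped a peak listed under it, and coverage used the TSS with most peaks. Named genes are the 10 members, related genes with a site, and the 5 genes nearest in coverage. Members, lists and motifs were chosen with earlier results of these data known. No test was added to the authors'. Code was tested on simulated data. Alternatives changed the promoter distance, overlap, q-value, FDR, size and assignment of sites. Computations used Python 3.11.15, numpy 2.4.6 and pandas 2.3.3, with plots by matplotlib 3.10.9.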

Additional observations from a re-analysis of the deposited data

How the results depend on the processing

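No paired analysis was possible because the files give a single peak list per group and group means, with no column per sample, and for the same reason no sample could be left out. The alternatives gave 62 values for 31 results, of which 49 kept their direction, call or count (within 1.5 times). With a -log10 q-value of at least 5, FLAG peaks of the 10 genes numbered 15 in place of 29. At an FDR of 0.01, and likewise for a log2 difference of at least 1, the number of genes with a higher site was 0 in place of 1, the Fosl1 site of the authors' deposited table. The Ier2 site was also lost at an FDR of 0.01. Counting promoter sites alone (3 kb), a setting chosen after the data were seen, 1 gene had a lower site in place of 3. Within 1 kb of the TSS, peaks covered 9888 bp in Myocd-LSD1, 9753 bp in Myocd-LSD1NF, 9551 bp in control and 3573 bp in the FLAG list over the 10 genes, in place of 21379, 22160, 21751 and 8450 bp within 3 kb, as a smaller window must. The 12 counts of overlap between lists stayed within 1.5 times when 50% of the shorter peak had to be shared. Without values per sample, a peak missing from a list cannot be told from a peak under the threshold.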
